A study of Homo sapiens with 12 samples.

Results

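The metallothionein genes MT2A, MT1X, MT1E, MT1F, MT1M and MT1G were followed through 12 RNA-seq libraries of LX-2, a line of human hepatic stellate cells grown in culture. They were taken from the count table by gene name, from a list chosen with earlier results of these data known. They are 6 of the 58735 genes of the count table. The SiNAT10_TGFB cells received siRNA against NAT10 by lipofection, then 5 ng/ml TGF-β1 from 48 h after transfection, and RNA was taken 24 h later. The SiNAT10 cells received the siRNA without TGF-β1, and the time of their harvest is not given in the labels. The TGFB cells received 5 ng/ml TGF-β1 for 24 h without siRNA, and the con cells were untreated. Each group had 3 libraries that the labels call biological replicates. All groups were wild-type LX-2 cells kept in medium with 10% fetal bovine serum. No control siRNA is named in the labels, so in every comparison of siRNA-treated with other cells the NAT10 knockdown and the transfection cannot be told apart.

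Metallothioneins are small cysteine-rich proteins that bind zinc and copper, and also cadmium when it is present. The zinc-sensing transcription factor MTF1 binds metal response elements (MREs) in the promoters of these genes and raises their transcription when free zinc rises, and glucocorticoids, cytokines and oxidative stress also raise them. NAT10 is an RNA acetyltransferase, and TGF-β1 is the cytokine used to activate stellate cells, the collagen-producing cells of liver fibrosis.

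All 6 genes lie within a single cluster on chromosome 16 (hg38 coordinates as listed with the counts). MT2A (ENSG00000125148) spans chr16:56608199-56609497 on the plus strand, and MT1E (ENSG00000169715) spans chr16:56625475-56627112 on the plus strand. MT1M (ENSG00000205364) spans chr16:56632233-56633986 on the plus strand, and MT1F (ENSG00000198417) spans chr16:56657694-56660698 on the plus strand. MT1G (ENSG00000125144) spans chr16:56666731-56668065 on the minus strand, and MT1X (ENSG00000187193) spans chr16:56682424-56684196 on the plus strand. The exons of MT1X share 321 bases, 18.1% of its exon length, with the same-strand transcript AC026461.1, which is listed at 0 in all 12 libraries. The exons of the other members overlap no other gene. The members also share short stretches with other genes: 3.02% of the 50-base stretches of MT2A transcripts occur in transcripts of another gene, 7.1% of those of MT1E, 1.22% of MT1F, 9.87% of MT1M and 16.5% of MT1G. Of those of MT1X, 14.6% occur in the overlapping AC026461.1 and 3.64% in other genes. The sources used here do not say how reads that fit several genes were counted, so a part of each member's count is uncertain.

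The promoters of MT2A and MT1X are shown because these are the only members in the RefSeq promoter table (GRCh38.p14). Those of MT1E, MT1F, MT1M and MT1G were not available for comparison. Each sequence runs from 250 bases before to 50 bases after the RefSeq start site. Capitals mark matches to the MRE core, spelled TGCACNC or TGCGCNC, on either strand. The MT2A promoter is chr16:56608334-56608633 and the MT1X promoter is chr16:56682220-56682519, both on the plus strand. The MT2A window lies within the gene span listed above, because the RefSeq start site is downstream of the listed gene start.
MT2A: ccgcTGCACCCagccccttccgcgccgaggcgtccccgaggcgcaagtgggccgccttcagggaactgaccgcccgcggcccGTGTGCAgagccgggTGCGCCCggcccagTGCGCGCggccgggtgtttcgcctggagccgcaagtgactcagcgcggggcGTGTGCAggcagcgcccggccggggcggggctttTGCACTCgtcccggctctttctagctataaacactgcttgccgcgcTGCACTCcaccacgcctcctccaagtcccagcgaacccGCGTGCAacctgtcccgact
MT1X: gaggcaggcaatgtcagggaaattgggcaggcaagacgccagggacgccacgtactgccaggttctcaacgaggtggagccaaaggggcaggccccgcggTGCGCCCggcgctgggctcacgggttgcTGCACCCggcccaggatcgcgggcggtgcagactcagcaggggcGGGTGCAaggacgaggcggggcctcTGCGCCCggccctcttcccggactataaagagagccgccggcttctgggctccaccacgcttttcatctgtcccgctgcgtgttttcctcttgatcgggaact

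The MT2A promoter held 8 MRE matches, 6 spelled TGCACNC and 2 spelled TGCGCNC, and the MT1X promoter held 4, of which 2 had each spelling. At least 1 match on either strand was found in 29.6% of 35116 promoters of the same length, at least 4 in 0.601% and at least 8 in 0.0199%. The GC content was 72% in the MT2A window and 67% in that of MT1X, and the other promoters were not matched for it. A TATA box spelled TATAAA began 29 bases before the MT2A start site (position -29) and at -30 in MT1X, a motif present in 11.5% of promoters. Each promoter held 2 GC boxes spelled GGGCGG, which 45% of promoters hold. The AP-1 motif TGANTCA was found once in MT2A, at -104, where it overlaps a match to the antioxidant response element core TGACNNNGC. MT1X held no TGANTCA and held TGACNNNGC at -243, on the minus strand. TGANTCA is in 7.71% and TGACNNNGC in 13.3% of promoters. These matches describe letters in the windows and do not show that a factor binds there.

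Library depth was 25877008 to 35132582 counts, and the 6 siRNA libraries were the 6 shallowest. NAT10 was lower in both siRNA groups, at 19.2, 15.8 and 20.7 CPM (read counts relative to the TMM-scaled library total) in SiNAT10_TGFB cells, against 67.8, 65.6 and 67.5 CPM in TGFB cells. It had 19.5, 18.5 and 17.9 CPM in SiNAT10 cells, against 62.9, 68.8 and 69.9 CPM in con cells. The fibroblast markers COL1A1 (769 to 7800 CPM) and VIM (798 to 1510 CPM) were abundant over the 12 libraries, ACTA2 had only 2.73 to 5.63 CPM, and the stellate cell markers LRAT and DCN had no count. Of 10 hepatocyte markers, ALB reached at most 0.154 CPM and TTR and FGB had no count, and only SERPINA1 passed 1 CPM. The epithelial, endothelial and leukocyte lists summed to 270 to 436, 7.99 to 16.4 and 4.78 to 8.78 CPM, most of the first from KRT18 and SOX9.

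MT2A made up most of the metallothionein RNA in these cells. Per kilobase of listed gene length, MT2A averaged 892 FPKM over the 12 libraries (642 to 1208). The order of the lower genes on this scale depends on the listed lengths. MT1X had 2136 counts over 1773 bases, and MT1M 1734 counts over 942 bases. MT1E averaged 99.8 FPKM (86.7 to 110), MT1F 7.58 FPKM (4.73 to 12.3), MT1M 5.01 FPKM (2.2 to 8.27) and MT1X 3.38 FPKM (1.63 to 4.89). MT1G had a single count, in con replicate 3, and no count in the other 11 libraries, where 3 counts would correspond to 0.0871 to 0.115 CPM. The 5 other members passed the filter on low counts, with at least 58 counts in every library. MT1G was therefore not detectable at this depth and enters no comparison.

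**Figure D1:**
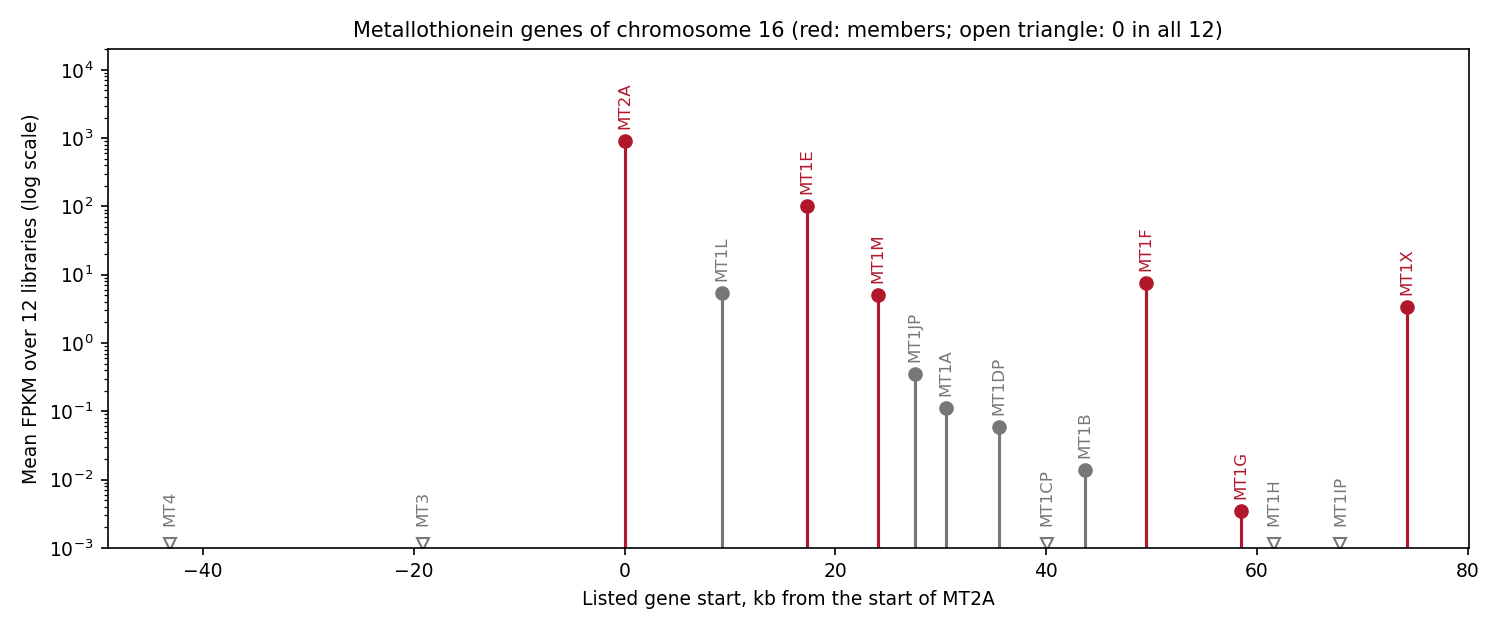
Mean FPKM over 12 libraries (log scale) of the metallothionein genes of chromosome 16, against the distance of their listed start from that of MT2A in kb. Red marks the 6 members, grey the other genes, and open triangles genes with no count. MT2A stands at 892 FPKM and MT1E at 99.8 FPKM, while MT1F, MT1M, MT1X and the pseudogene MT1L lie between 3.38 and 7.58 FPKM.

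Of 17 other metallothionein or metallothionein-like gene names, 16 matched the table, 7 had no count in any library and 4 passed the filter. MT3 and MT4, which lie upstream of MT2A, and MT1H had no count. MT1L, an annotated pseudogene between MT2A and MT1E, averaged 5.32 FPKM, near MT1M on that scale, but from 777 counts over a listed 411 bases. MT1A had 17 counts in all, 9 of them in TGFB replicate 1, and MT1XP1, a pseudogene, had 24. TESMIN, the testis-expressed metallothionein-like gene, lies outside the cluster.

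The first question was how TGF-β1 moved these genes. MT1X rose and MT1E and MT1F fell in TGFB cells against con cells, while MT2A and MT1M did not pass the test. Thus 3 of the 5 tested members were called at an adjusted p under 0.05, 1 higher and 2 lower, where 24.1% of all 18560 genes tested were called, 11.9% higher and 12.2% lower. The members' median log2 fold change was -0.25, against -0.006 over all genes.

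MT1X had 8.24, 8.57 and 8.40 CPM in TGFB cells, against 3.28, 2.90 and 3.47 CPM in con cells. Every TGFB library was more than double every con library, and the 3 TGFB values lay close together. The log2 fold change was 1.38 ± 0.15 (SE, n = 3 each), or 2.61-fold, with an adjusted p of 1.48e-07 (edgeR quasi-likelihood test, Benjamini-Hochberg adjustment over all genes).

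MT1F had 15.7, 14.4 and 15.5 CPM in TGFB cells, against 20.5, 18.2 and 23.4 CPM in con cells. All TGFB values were below all con values, by a log2 fold change of -0.44 ± 0.11 (adjusted p = 0.00403). MT1E had 92.8, 91.5 and 96.3 CPM in TGFB cells, against 105.0, 115 and 114 CPM in con cells. These groups did not overlap either, and the log2 fold change was -0.25 ± 0.066 (adjusted p = 0.00643). It was -0.39 when libraries were scaled by their total alone, a scaling that moves the median of all genes to -0.14.

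MT2A had 1008, 894 and 1076 CPM in TGFB cells, against 836, 900.1 and 1042 CPM in con cells. The ranges overlapped, and the log2 fold change of 0.10 ± 0.075 (95% interval -0.05 to 0.25, adjusted p = 0.372) turned to -0.04 with scaling by the library total alone. MT1M had 5.71, 6.12 and 3.54 CPM in TGFB cells, against 7.81, 5.5 and 7.34 CPM in con cells. These ranges also overlapped, TGFB replicate 3 being the lowest, with a log2 fold change of -0.42 ± 0.22 (adjusted p = 0.172). Separation of all libraries, seen for MT1X, MT1E and MT1F, is common here: 40.8% of all genes tested did not overlap between TGFB and con cells.

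**Figure D2:**
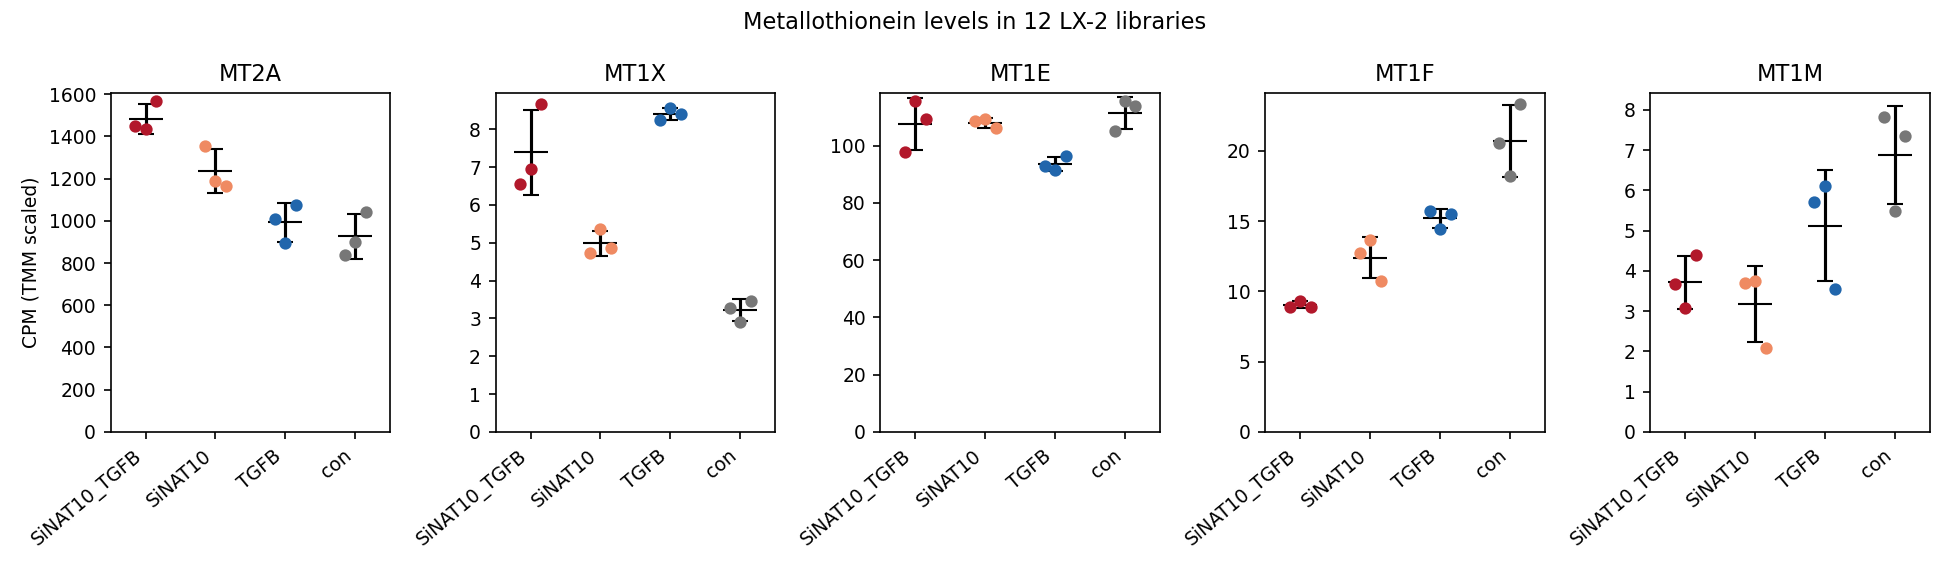
CPM (TMM scaled) of MT2A, MT1X, MT1E, MT1F and MT1M in the 12 libraries, by group. Coloured points are libraries, and black lines are the group mean and SD (n = 3). MT2A is highest and MT1F lowest in SiNAT10_TGFB cells, MT1X is lowest in con cells at 2.90 to 3.47 CPM, and MT1E moves little.

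The difference with NAT10 siRNA in cells without TGF-β1 was read from SiNAT10 against con cells. MT2A and MT1X rose and MT1F and MT1M fell in SiNAT10 cells against con cells, while MT1E did not pass the test. That is 2 higher and 2 lower of 5 members, in a comparison in which 52.8% of all genes were called, 26.4% in each direction. With so many genes called, calls in both directions are not particular to this family. The members' median log2 fold change was -0.04, against 0.02 over all genes.

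MT2A had 1354, 1187 and 1164 CPM in SiNAT10 cells, against 836, 900.1 and 1042 CPM in con cells. All SiNAT10 values were above all con values, with SiNAT10 replicate 1 the highest, and the log2 fold change was 0.42 ± 0.075, or 1.33-fold (adjusted p = 6.05e-05). It was 0.24, with an adjusted p of 0.00709, when the trend of fold change with gene length was removed. MT1X had 4.74, 5.36 and 4.87 CPM in SiNAT10 cells, against 3.28, 2.90 and 3.47 CPM in con cells. The groups were apart, with a log2 fold change of 0.63 ± 0.15, or 1.55-fold (adjusted p = 0.00146).

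MT1F had 12.8, 13.7 and 10.8 CPM in SiNAT10 cells, against 20.5, 18.2 and 23.4 CPM in con cells, a log2 fold change of -0.74 ± 0.11 (adjusted p = 6.75e-06). MT1M had 3.71, 3.75 and 2.08 CPM in SiNAT10 cells, against 7.81, 5.5 and 7.34 CPM in con cells, a log2 fold change of -1.12 ± 0.23 (adjusted p = 0.000244). For neither gene did the groups overlap, and SiNAT10 replicate 3 was the lowest library for both. SiNAT10 replicates 1 and 3 were also the least alike pair of libraries within a group, with a chi-square per degree of freedom of 19.4. The other pairs had 4.06 to 9.59. With the trend of fold change with GC content removed, the log2 fold changes were -0.44 for MT1F and -0.67 for MT1M, with adjusted p of 0.000636 and 0.0113. Of all genes tested, 57.7% did not overlap between SiNAT10 and con cells.

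MT1E had 109, 109 and 106 CPM in SiNAT10 cells, against 105.0, 115 and 114 CPM in con cells. The SiNAT10 values lay within the con range, and the log2 fold change was -0.04 ± 0.066 (95% interval -0.17 to 0.08, adjusted p = 0.597). It was 0.01 with scaling by the library total alone and -0.25 (adjusted p = 0.00255) with the gene length trend removed, so its direction depended on the processing.

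In cells given TGF-β1, siRNA again gave a higher MT2A and a lower MT1F. MT2A and MT1E rose and MT1F fell in SiNAT10_TGFB cells against TGFB cells, and MT1M and MT1X did not pass the test. This made 3 of 5 members called, 2 higher and 1 lower, in a comparison in which 53.1% of all genes were called, 26.3% higher and 26.8% lower. The members' median log2 fold change was -0.19, against 0.008 over all genes.

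MT2A had 1450, 1434 and 1566 CPM in SiNAT10_TGFB cells, against 1008, 894 and 1076 CPM in TGFB cells. The lowest SiNAT10_TGFB library was well above the highest TGFB library, and the log2 fold change was 0.58 ± 0.075, or 1.49-fold (adjusted p = 7.09e-07). MT1F had 8.92, 9.33 and 8.91 CPM in SiNAT10_TGFB cells, against 15.7, 14.4 and 15.5 CPM in TGFB cells. The groups were tight and far apart, with a log2 fold change of -0.75 ± 0.12 (adjusted p = 8.68e-06), and -0.46 with the GC trend removed.

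MT1E had 97.6, 116 and 109 CPM in SiNAT10_TGFB cells, against 92.8, 91.5 and 96.3 CPM in TGFB cells. SiNAT10_TGFB replicate 1 was only just above the highest TGFB library. The log2 fold change of 0.20 ± 0.066 (adjusted p = 0.0135) was 0.12 with the gene length trend removed (adjusted p = 0.141). It was 0.19 without TGFB replicate 2 (adjusted p = 0.0517) and 0.14 without SiNAT10_TGFB replicate 2 (adjusted p = 0.109). The call was thus not kept in these fits, which also have fewer libraries in a group.

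MT1X had 6.56, 6.95 and 8.66 CPM in SiNAT10_TGFB cells, against 8.24, 8.57 and 8.40 CPM in TGFB cells. Replicate 3 of the SiNAT10_TGFB cells was the highest of the 6 libraries and the other two were the lowest, and the log2 fold change was -0.19 ± 0.14 (95% interval -0.46 to 0.09, adjusted p = 0.283). MT1M had 3.68, 3.07 and 4.38 CPM in SiNAT10_TGFB cells, against 5.71, 6.12 and 3.54 CPM in TGFB cells. TGFB replicate 3 lay among the SiNAT10_TGFB values, and the log2 fold change was -0.47 ± 0.23 (adjusted p = 0.0903). It was -0.67 without TGFB replicate 3 (adjusted p = 0.0186) and -0.47 without SiNAT10 replicate 3 (adjusted p = 0.0485), and -0.01 with the GC trend removed. Of all genes tested, 60.6% did not overlap between these groups.

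**Figure D3:**
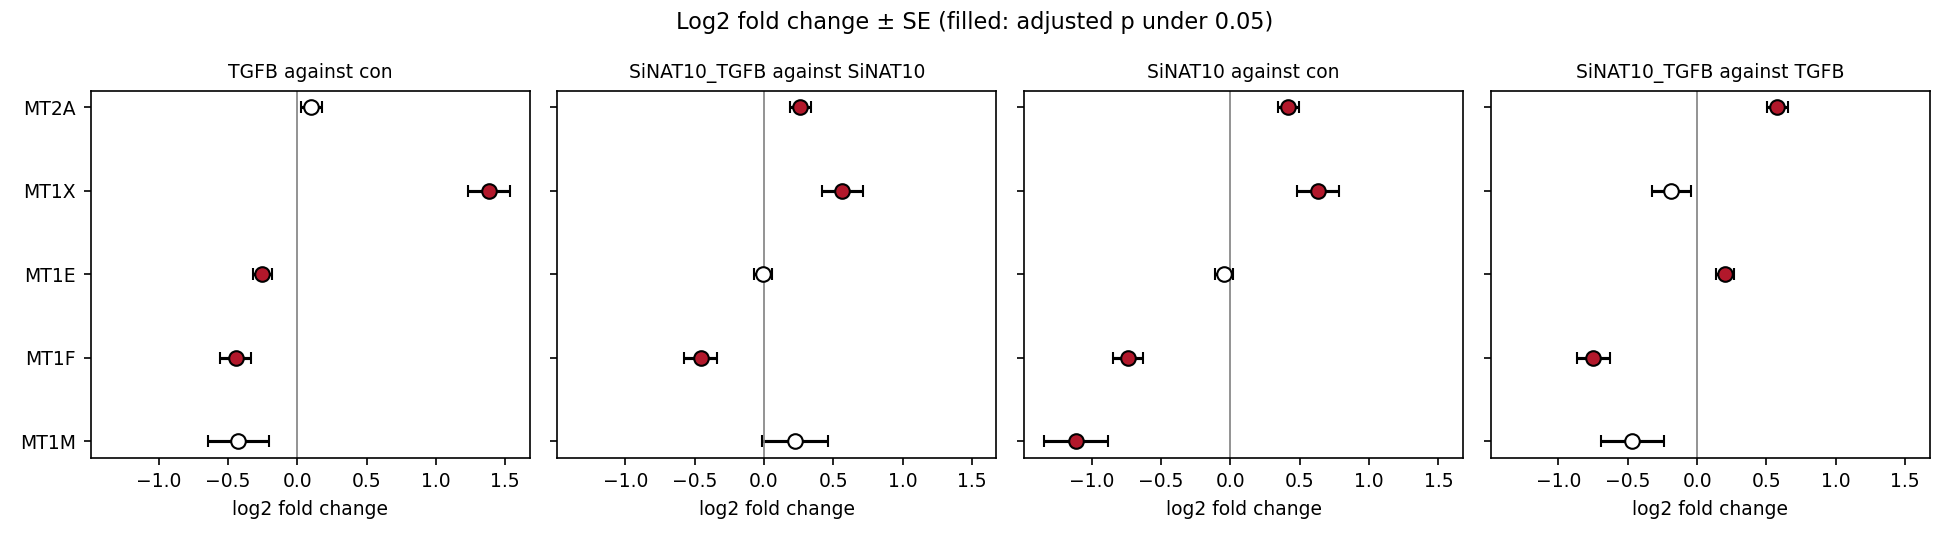
Log2 fold change with SE of MT2A, MT1X, MT1E, MT1F and MT1M in 4 comparisons of 3 against 3 libraries, with positive values for a higher level in the group named first. Filled points have an adjusted p under 0.05 by edgeR's quasi-likelihood test. MT1F lies left of 0 in all 4 panels, and MT2A is filled in every panel but that of TGFB against con cells.

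The difference with TGF-β1 in siRNA-treated cells was read from SiNAT10_TGFB against SiNAT10 cells, which share no library with the TGFB against con comparison. The harvest time of the SiNAT10 cells is not given. In this comparison TGF-β1 and any difference in time after transfection therefore cannot be told apart. MT2A and MT1X rose and MT1F fell, where 11.1% of all genes were called, 5.92% higher and 5.15% lower. The log2 fold change of MT1F was -0.45 ± 0.12 (adjusted p = 0.0115), and that of MT1X was 0.57 ± 0.15 (adjusted p = 0.0114). That of MT2A was 0.26 ± 0.075 (adjusted p = 0.0218). For these 3 genes the groups did not overlap, as for 23.4% of all genes. The values of MT1E (-0.01 ± 0.066, adjusted p = 0.98) and MT1M (0.22 ± 0.24, adjusted p = 0.673) did not pass the test.

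These calls did not hold in every fit that left out a library, which also has fewer libraries in a group. MT1F had a log2 fold change of -0.38 (adjusted p = 0.0833) without SiNAT10 replicate 2, and MT1X had 0.44 (adjusted p = 0.0965) without SiNAT10_TGFB replicate 3. MT2A had 0.24 without SiNAT10 replicate 2, 0.22 without SiNAT10 replicate 3 and 0.22 without SiNAT10_TGFB replicate 3, with adjusted p of 0.108, 0.0613 and 0.113. With scaling by the library total alone MT2A had 0.20 (adjusted p = 0.0625).

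Whether the difference with TGF-β1 changed with siRNA was tested by the interaction, the log2 fold change of SiNAT10_TGFB against SiNAT10 minus that of TGFB against con. The limit on harvest time holds for it too. MT1X was the member called, with -0.82 ± 0.21 (adjusted p = 0.0253), where 3.85% of all genes were called, 1.91% of them in that direction. Its difference between cells with and without TGF-β1 was thus smaller under siRNA, where the level without TGF-β1 was already above that of con cells. The adjusted p ranged up to 0.0827 when 1 library was left out, and stayed over 0.05 without con replicate 1 or 2, any TGFB library, SiNAT10 replicate 2, or SiNAT10_TGFB replicate 1 or 2, with values of -0.83 to -0.74. The interaction was 0.25 ± 0.09 for MT1E (adjusted p = 0.176), -0.01 for MT1F (adjusted p = 0.986), 0.65 for MT1M (adjusted p = 0.339) and 0.16 for MT2A (adjusted p = 0.5). MT1E passed the threshold with scaling by the library total alone (0.32, adjusted p = 0.0415) and with the gene length trend removed (0.36, adjusted p = 0.0231).

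The order of the 4 groups differed from gene to gene. MT2A averaged 1483 ± 72.2 CPM (SD, n = 3 here and below) in SiNAT10_TGFB, 1235 ± 103 in SiNAT10, 992.8 ± 91.5 in TGFB and 926 ± 105 in con cells. The last neighbours in that order, TGFB and con cells, did not differ past the threshold. SiNAT10 against TGFB cells gave MT2A a log2 fold change of 0.32 (adjusted p = 0.00101), in a comparison in which 55.2% of all genes were called. This was 0.51 with scaling by the library total alone, and on unfiltered FPKM it did not pass the threshold (adjusted p = 0.0657).

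MT1F ran the other way, with 9.05 ± 0.24 CPM in SiNAT10_TGFB, 12.4 ± 1.48 in SiNAT10, 15.2 ± 0.678 in TGFB and 20.7 ± 2.59 in con cells, and all 3 neighbouring pairs differed. SiNAT10 against TGFB cells, the weakest of them, had a log2 fold change of -0.29 (adjusted p = 0.0312). This was -0.27 without TGFB replicate 1, -0.28 without TGFB replicate 3 and -0.20 without SiNAT10 replicate 3, with adjusted p of 0.0879, 0.0779 and 0.153. It was -0.10 with scaling by the library total alone and 0.04, the opposite sign, with the GC trend removed.

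MT1X averaged 7.39 ± 1.12 CPM in SiNAT10_TGFB, 4.99 ± 0.327 in SiNAT10, 8.41 ± 0.165 in TGFB and 3.22 ± 0.289 in con cells, and only its 2 highest groups did not differ past the threshold. MT1E averaged 108 ± 9.1 CPM in SiNAT10_TGFB, 108 ± 1.72 in SiNAT10, 93.5 ± 2.52 in TGFB and 111 ± 5.57 in con cells, with TGFB cells alone set apart from their neighbour. MT1M averaged 3.71 ± 0.656 CPM in SiNAT10_TGFB, 3.18 ± 0.953 in SiNAT10, 5.12 ± 1.38 in TGFB and 6.88 ± 1.22 in con cells, and none of its neighbours differed past the threshold. MT1M did fall in SiNAT10_TGFB against con cells (-0.89, adjusted p = 0.0018), where 54.6% of all genes were called, but with the GC trend removed the value was -0.46 (adjusted p = 0.0715).

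In sum of CPM, the 6 members reached 1611 ± 74.8 in SiNAT10_TGFB, 1363 ± 105 in SiNAT10, 1115 ± 93 in TGFB and 1068 ± 111 in con cells, following MT2A. The share of MT2A in the summed FPKM of the members was 90.1 to 91.4% in SiNAT10_TGFB, 88.6 to 89.9% in SiNAT10, 86.7 to 88.4% in TGFB and 84.2 to 86.0% in con cells. No library of any group overlapped with another group in this share, which was not tested.

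**Figure D4:**
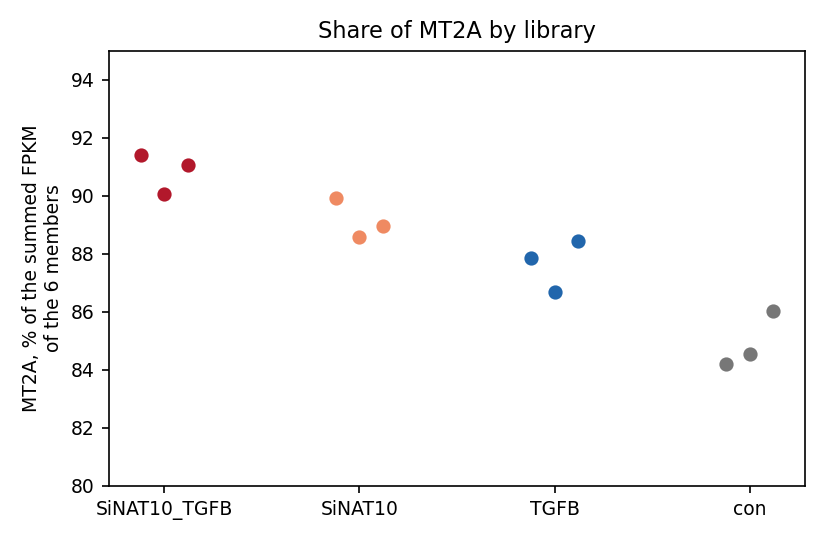
MT2A as a percentage of the summed FPKM of the 6 members, by library and group, on an axis that begins at 80%. Each point is a library. The 4 groups form separate steps, with SiNAT10_TGFB cells at 90.1 to 91.4% and con cells at 84.2 to 86.0%.

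The hepatocyte marker sum moved with siRNA like MT2A, at 24.4 to 28.6 CPM in SiNAT10_TGFB, 23.4 to 24.6 in SiNAT10, 13.7 to 15 in TGFB and 15.3 to 19.0 CPM in con cells. It came almost wholly from SERPINA1, at 13.7 to 28.4 CPM, with ALB, TTR and FGB at or near 0 as given above. The stellate cell and fibroblast list summed to 2470 to 2730 CPM in SiNAT10_TGFB, 1880 to 1960 in SiNAT10, 10100 to 10700 in TGFB and 4600 to 4860 CPM in con cells, and 2 of its 12 genes had no count. Its largest genes were COL1A1 (769 to 7800 CPM), VIM (798 to 1510 CPM) and TAGLN (115 to 1190 CPM). PDGFRA reached at most 0.497 CPM and DES at most 0.232 CPM. The part of these shifts in the metallothionein results was not tested. In bulk RNA, fewer cells expressing a gene and less RNA per cell cannot be told apart.

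Among the other metallothionein genes, MT1L had 2.81, 2.88 and 3.33 CPM in SiNAT10_TGFB cells, 1.85, 1.96 and 1.54 CPM in SiNAT10 cells, 2.01, 2.17 and 2.09 CPM in TGFB cells and 1.98, 1.67 and 1.94 CPM in con cells. Its SiNAT10_TGFB libraries were above all others. The log2 fold change was 0.75 ± 0.22 against SiNAT10 cells (adjusted p = 0.0244) and 0.52 ± 0.21 against TGFB cells (adjusted p = 0.0418). The adjusted p against TGFB cells was 0.0502 to 0.138 without con replicate 1, any TGFB library or any SiNAT10_TGFB library. With DESeq2 it was 0.0792, with no filter on low counts 0.174 and with the gene length trend removed 0.119. Against SiNAT10 cells it was 0.0501 to 0.102 without SiNAT10 replicate 1 or 3 or SiNAT10_TGFB replicate 3, and 0.0916 with no filter.

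TESMIN fell in TGFB against con cells (-0.61, adjusted p = 0.00312), in SiNAT10 against con cells (-0.70, adjusted p = 0.000372) and in SiNAT10_TGFB against TGFB cells (-0.40, adjusted p = 0.0355). The last call was lost with scaling by the library total alone (-0.27, adjusted p = 0.154), with DESeq2 (adjusted p = 0.0721), and without any SiNAT10_TGFB library or TGFB replicate 1 or 3 (-0.41 to -0.34, adjusted p of 0.0629 to 0.124). On log2(FPKM + 1) the first 2 values were -0.31 and -0.34. MT1JP, a pseudogene between MT1M and MT1A, had at most 26 counts in a library and passed only in SiNAT10_TGFB against con cells (2.19, adjusted p = 0.024). MT2P1 had values of -0.57 in TGFB against con cells and 0.76 in SiNAT10_TGFB against TGFB cells, with adjusted p of 0.344 and 0.122, and with the GC trend removed the second was 1.17 (adjusted p = 0.0172).

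The genes around metallothioneins in metal handling did not move as a block. MTF1 had 29.6, 31.4 and 27.9 CPM in SiNAT10 cells, against 34.5, 37.3 and 39.0 CPM in con cells, and fell by 0.32 on the log2 scale (adjusted p = 0.0017), or by 0.19 with the gene length trend removed. In SiNAT10_TGFB against TGFB cells its value was -0.14 (adjusted p = 0.144). MTF2, a Polycomb-associated protein named for metal response, was 0.32 higher in SiNAT10 against con cells and 0.36 higher in SiNAT10_TGFB against TGFB cells, and with the GC trend removed these were 0.10 (adjusted p = 0.176) and 0.16.

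SLC30A1, the plasma membrane zinc exporter and itself an MTF1 target, had 36.2, 32.3 and 34.2 CPM in SiNAT10_TGFB cells, against 44.3, 45.6 and 39.7 CPM in TGFB cells. It had 32.4, 32.2 and 36.3 CPM in SiNAT10 cells, against 44.6, 38.9 and 39.2 CPM in con cells. It was lower in every siRNA library, by log2 fold changes of -0.33 (adjusted p = 0.00176) and -0.28 (adjusted p = 0.00654). MT2A was higher in the same libraries, and a link between these levels was not tested. The SLC30A1 call against con cells was lost with the gene length trend removed (-0.18, adjusted p = 0.068) and without con replicate 1 (-0.22, adjusted p = 0.05). With the GC trend removed its values were -0.53 and -0.50. Of 7 zinc exporters tested, 2 were higher and 3 lower in SiNAT10_TGFB against TGFB cells, and 2 were higher and 2 lower in SiNAT10 against con cells. Of all genes, 26.3% were called higher and 26.8% lower in the first comparison, and 26.4% in each direction in the second. Calls in both directions are thus not particular to these genes. SLC30A7, which carries zinc into the Golgi, rose by 0.66 in the first and 0.79 in the second comparison, and SLC30A6 by 0.52 and 0.30, the second of which was 0.08 (adjusted p = 0.28) with the GC trend removed. SLC30A3, a vesicle transporter, fell by 0.62 and 1.02.

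Of 11 zinc importers tested, 3 were higher and 6 lower in SiNAT10_TGFB against TGFB cells, and 3 were higher and 5 lower in SiNAT10 against con cells. Of all genes, 53.1% were called in the first comparison and 52.8% in the second. SLC39A6, a plasma membrane importer, had 17.9, 14.3 and 19.8 CPM in SiNAT10_TGFB cells, against 163, 166 and 165 CPM in TGFB cells. It had 15.5, 16.5 and 21.0 CPM in SiNAT10 cells, against 133, 138 and 130.2 CPM in con cells. These are log2 fold changes of -3.25 (adjusted p = 3.13e-17) and -2.92 (adjusted p = 2.76e-16), each larger in size than that of NAT10, which was -1.85 in both comparisons. SLC39A13 fell by 0.95 and 0.92, or by 0.48 and 0.45 with the GC trend removed, and SLC39A7, an endoplasmic reticulum transporter, by 0.62 and 0.45. SLC39A8 rose by 0.87 and 0.96, SLC39A9 by 0.65 and 0.37, and SLC39A14, an importer of zinc, manganese and iron induced by inflammation, by 0.43 and 0.26. With the GC trend removed SLC39A14 had 0.28 and 0.11, and SLC39A9 had 0.21 in SiNAT10 against con cells. TGF-β1 alone gave 4 higher and 2 lower importers against con cells, where 24.1% of all genes were called. The higher importers included SLC39A10 (0.36, adjusted p = 0.00031) and SLC39A7 (0.34, adjusted p = 0.000125).

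**Figure D5:**
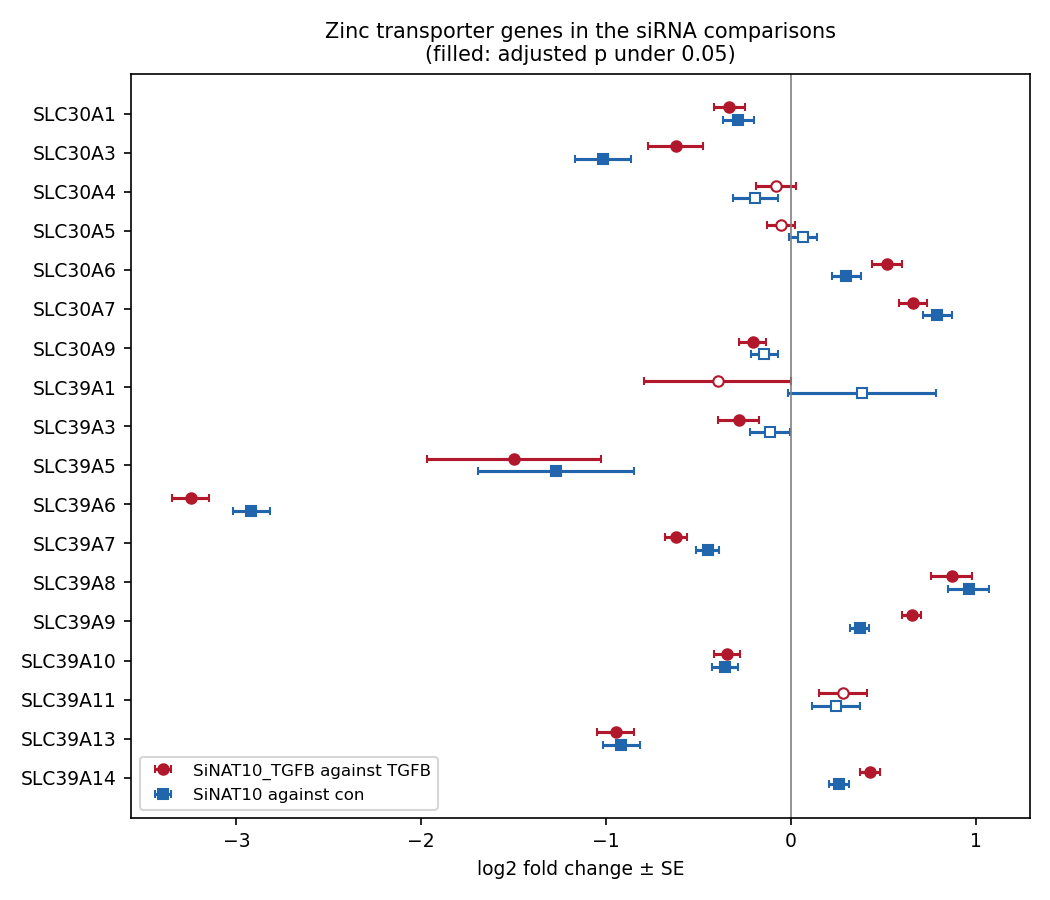
Log2 fold change with SE of the 18 tested zinc transporter genes, SLC30A exporters above SLC39A importers, in SiNAT10_TGFB against TGFB cells (red circles) and in SiNAT10 against con cells (blue squares), 3 libraries a group. Filled points have an adjusted p under 0.05. SLC39A6 lies at -3.25 and -2.92, and SLC39A8 and SLC30A7 lie to the right.

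Of 12 copper handling genes tested, 4 were higher and 3 lower in each siRNA comparison. Of all genes, 53.1% were called in SiNAT10_TGFB against TGFB cells, 26.3% higher and 26.8% lower. In SiNAT10 against con cells 52.8% were called, 26.4% in each direction. ATOX1, the copper chaperone, rose by 0.58 in SiNAT10_TGFB against TGFB cells and by 0.83 in SiNAT10 against con cells, and the importer SLC31A1 by 0.35 and 0.44. The exporter ATP7B fell by 1.94 and 2.17, or by 0.77 in each on log2(FPKM + 1). CCS, the chaperone of copper for superoxide dismutase, was among the lower genes at -0.63 and -0.45, but with the GC trend removed it had -0.16 and 0.02 and passed in neither. Of 13 iron handling genes, 8 were higher and 2 lower in SiNAT10_TGFB against TGFB cells, and 7 were higher and 1 lower in SiNAT10 against con cells. HMOX1, the haem-degrading enzyme, rose by 2.46 and 1.78, and the ferritin genes FTH1 by 1.46 and 1.37 and FTL by 1.21 and 1.32. PCBP2 fell by 0.83 and 0.69. FLVCR1 fell by 0.32 in the first comparison, a call lost with scaling by the library total alone (adjusted p = 0.203). In TGFB against con cells 0 iron handling genes were higher and 3 lower, among them SLC40A1 at -0.94. Of all genes, 11.9% were called higher and 12.2% lower there. The ferritin counts are uncertain because both genes have many near-identical pseudogenes.

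Lists of genes answering to other signals that also act on metallothioneins were counted the same way. The share of all genes called was 53.1% in SiNAT10_TGFB against TGFB, 52.8% in SiNAT10 against con and 24.1% in TGFB against con cells. In the glucocorticoid receptor list 12 genes were tested, the receptor gene NR3C1 itself among them. Of these, 8 were higher and 1 lower in SiNAT10_TGFB against TGFB cells, and 6 were higher and 1 lower in SiNAT10 against con cells. In TGFB against con cells 5 were higher and 5 lower. ANGPTL4 and DUSP1 rose in all 3 comparisons. ERRFI1 rose by 1.53 and 1.31 in the siRNA comparisons but fell by 0.81 in TGFB against con cells. KLF9 was the lower gene of SiNAT10_TGFB against TGFB cells, at -0.63, and rose by 0.62 in TGFB against con cells. NR3C1 fell by 0.33 in SiNAT10 and by 0.37 in TGFB against con cells, and FKBP5 fell by 0.31 in the latter. Of 13 heat shock genes, 8 were higher and 2 lower in each siRNA comparison, with HSPA1B at 0.45 in SiNAT10_TGFB against TGFB cells and at 0.62 in SiNAT10 against con cells. HSPA1B is nearly identical to HSPA1A, so their split is uncertain. HSPB1, a small heat shock protein, was among the lower genes at -0.99 and -0.34, and with the GC trend removed the second turned to 0.14 (adjusted p = 0.0389).

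In the NRF2 list 14 genes were tested, among them NFE2L2, the gene of NRF2 itself, and that of its inhibitor KEAP1. Of these, 9 were higher and 2 lower in SiNAT10_TGFB against TGFB cells, and 8 were higher and 2 lower in SiNAT10 against con cells. In TGFB against con cells 2 were higher and 6 lower. NQO1, a quinone reductase, had a log2 fold change of 1.37, 0.83 and -0.76 in these comparisons, and TXNRD1, thioredoxin reductase, 1.42, 0.94 and -1.03. KEAP1 was 1 of the 2 lower genes of each siRNA comparison at -0.35 and -0.39, but had 0.03 and 0.01 with the GC trend removed. The other was ABCC1, at -0.37 and -0.26, the second of which was -0.13 (adjusted p = 0.161) with the gene length trend removed. Of 9 STAT3 and acute phase genes tested, 5 were higher and 2 lower in SiNAT10_TGFB against TGFB cells and 7 were higher and 2 lower in SiNAT10 against con cells. STAT3 rose by 0.71 and 0.74. PIM1 and BCL3 were the 2 lower genes of each comparison. PIM1 had -1.01 (adjusted p = 7.6e-11) and -0.84 (adjusted p = 1.88e-09). BCL3 had -0.35 and -0.53, but with the GC trend removed it had 0.19 (adjusted p = 0.0381) and -0.02 (adjusted p = 0.85). In TGFB against con cells 2 were higher and 2 lower, with IL6 up by 2.40. These shares stand beside the 53.1%, 52.8% and 24.1% of all genes called in the 3 comparisons, and no list was tested as a set.

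The genes whose pattern over the 12 libraries was most like that of each member were found by the root mean square (RMS) difference of centred log2 CPM, over 13038 genes. For MT2A, whose own RMS spread was 0.288, the nearest were EVA1A (0.0715), PSMD7 (0.0848), NECAP2 (0.0917), COX7B (0.0929) and ALAS1 (0.095). ALAS1, the first enzyme of haem synthesis, averaged 119 CPM in SiNAT10_TGFB, 108 in SiNAT10, 84.7 in TGFB and 79.9 CPM in con cells. The nearest to MT1X was SERPINE2, a protease inhibitor (RMS difference 0.11), with 176 CPM in SiNAT10_TGFB, 121 in SiNAT10, 193 in TGFB and 80.8 CPM in con cells. The nearest to MT1F was CEP250 (0.116), to MT1M KCNK2 (0.257) and to MT1E TOMM34 (0.0485). Among the members themselves, MT1E and MT2A were the nearest pair, with an RMS difference of 0.281, which is close to the spread of MT2A itself beside the 0.115 of the nearly flat MT1E, and MT1F and MT1X the farthest, with 0.88.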

How the data were processed

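RNA-seq of 12 LX-2 libraries was used as deposited. Per the submitters' processing notes, fastp served to clean the reads and HISAT2 2.2.1 to align them to hg38, and the authors deposited raw read counts per gene. Not given in the sources used here are the counting tool, the strand setting and the handling of multimapping reads. The authors also deposited FPKM values, which equal counts divided by the listed gene length and by 1 factor per library. Groups came from the labels. Nothing in the labels says that replicates came from separate cultures, so p-values measure the spread between these libraries.

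Counts were analysed with edgeR 4.0.16 (R 4.3.3): default filter on low counts (18560 genes), TMM scaling, and 1 quasi-likelihood fit of 4 group means. P-values were adjusted by Benjamini-Hochberg over all genes tested, and a gene was called at an adjusted p under 0.05. SE is the size of the log2 fold change divided by the root of the F statistic, and the 95% intervals use the normal quantile. Alternatives used other scalings and filters, DESeq2 1.42.0, limma 3.58.1 on counts (voom) and on log2(FPKM + a pseudocount of 1 or 0.1), removal of gene length or GC trends, a replicate block and leaving out each library. Deposited gene lengths served the length trend. The fit was tested on simulated counts.

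The members and all gene lists were chosen with earlier results of these data known. The lists were other metallothioneins, metal-responsive transcription, zinc exporters and importers, copper and iron handling, glucocorticoid receptor, heat shock, NRF2 and STAT3 genes, and cell type markers. The text names the members, other metallothioneins with at least 10 counts, and from each list at most 3 called genes in each direction with the smallest p. It also names the genes most like each member (5 for MT2A, 1 for the others, with a mean of at least 50 counts).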

Additional observations from a re-analysis of the deposited data

Results flagged for a closer look

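The change of MT1X with TGF-β1 differed between siRNA-treated and other cells by a test of the difference itself, at -0.82 ± 0.21 on the log2 scale (edgeR, adjusted p = 0.0253). MT1X rose by 0.57 with TGF-β1 in siRNA-treated cells and by 1.38 in cells without siRNA. The direction was the same under all 25 alternatives, but the adjusted p was above 0.05 in 8 of 12 fits that left out a library and without the filter on low counts. The harvest time of the SiNAT10 cells is not given, so TGF-β1 and any difference in time after transfection cannot be told apart in the siRNA-treated cells.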

How the results depend on the processing

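Of 905 member values recomputed under alternatives, 842 kept their direction and side of the threshold, 35 lost the call, 7 gained it and 21 changed sign. Leaving out a library gave 3 members called for TGFB against con and 4 for SiNAT10 against con cells. It gave 2 to 4 members called for SiNAT10_TGFB against TGFB cells, 1 to 3 for SiNAT10_TGFB against SiNAT10 cells (1 without SiNAT10 replicate 2 and without SiNAT10_TGFB replicate 3), and 0 to 1 for the interaction. Requiring a log2 fold change of at least 1 left 1 member in TGFB against con, 1 in SiNAT10 against con, and 0 in SiNAT10_TGFB against TGFB, SiNAT10_TGFB against SiNAT10 and the interaction. An adjusted p under 0.01 left 0 in the last 2 of these. The interaction called 2 members with library size only, 2 with the gene length trend removed and 0 with no filter. Neighbouring groups that differed numbered 8, but 5 with FPKM (pseudocount 1, no filter) and 6 to 8 without a library. The cause was not tested. No pairing by replicate number was seen (correlations -0.073 to 0.048 over 18 pairs), and with the replicate block all 35 member comparisons kept their call, with 3, 4, 3, 3 and 1 members called. Outside the members, MT1L lost its call in SiNAT10_TGFB against TGFB under the block (adjusted p = 0.0586).

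Signs changed for values near 0 and also for some called genes. With library size only, MT1E was 0.011 (SiNAT10 against con), MT1F 0.064 (interaction) and MT2A -0.035 (TGFB against con). With the gene length trend removed, MT1E was 0.003 (SiNAT10_TGFB against SiNAT10), MT1F 0.041 (interaction) and MT2P1 -0.077 (SiNAT10 against con). The MT1F interaction was also 0.007 with no filter and 0.016 on FPKM (pseudocount 1) with and without the filter, and the MT1JP interaction was 0.361 with voom and 0.007 on unfiltered FPKM. With the GC trend removed, MT1F was 0.035 (SiNAT10 against TGFB), CCS 0.018, HSPB1 0.145 and KEAP1 0.006 (SiNAT10 against con), and KEAP1 0.033 and BCL3 0.19 (SiNAT10_TGFB against TGFB), all called lower as reported. Leaving out a library gave MT1E -0.06 to 0.061 (SiNAT10_TGFB against SiNAT10) and -0.107 to 0.013 (SiNAT10_TGFB against con), MT1F -0.106 to 0.075 (interaction) and MT1M -0.004 to 0.358 (SiNAT10_TGFB against SiNAT10). It gave MT1L -0.136 to 0.033 (SiNAT10 against con), MT1JP -0.184 to 1.072 (SiNAT10_TGFB against TGFB) and -1.131 to 0.129 (interaction), and MT2P1 -0.281 to 0.199 (SiNAT10_TGFB against SiNAT10).

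Over all genes the interaction called 714 genes, against 424 on unfiltered FPKM and 1382 with the GC trend removed. In simulated counts, 50% of genes changed by 0.5 on the log2 scale were called in TGFB against con and 44% in SiNAT10_TGFB against TGFB. Each share is over 50 genes, and the share at the members' own count levels was not tested. A member that missed the threshold may still differ.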
